A study of Mus musculus with 12 samples.

Results

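Oxidative phosphorylation genes were examined in livers of Hsd17b13 knockout (KO) and wild-type (WT) mice. Of 20143 genes in the deposited table, 102 met the rule: a protein-coding gene named as a subunit or assembly factor of respiratory complexes I to V, whose values in counts per 1000000 (CPM) averaged 1 or more over 12 libraries. Of these, 89 are encoded in the nucleus and 13 on mitochondrial DNA. The nuclear set held 36 subunits of complex I, 4 of complex II, 8 of complex III, 11 of complex IV and 15 of complex V. It also held 12 assembly factors of complexes I and II and 3 related proteins, Cox7a2l, Atp5s and Ndufa4l2. The mitochondrial set held 7 subunits of complex I, 1 of complex III, 3 of complex IV and 2 of complex V. Just inside the minimum were Ndufa4l2 (1.19 CPM), Ndufaf5 (2.47) and Ndufaf2 (3.33), and just outside it Atp5g2 (0.888), Cox7a1 (0.523) and Cox6b2 (0.280). A further 10 table entries carried matching names but were not protein-coding.

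The series compared 6 WT with 6 KO mice, 1 liver library each. Every mouse, WT included, received CDAA-HFD, a high-fat diet with defined amino acids and no choline, begun at 8 to 10 weeks of age and kept up for 12 weeks, so no mouse on ordinary food enters any comparison. This diet leads to a fatty, inflamed and fibrotic liver. The labels name neither strain nor sex, nor how the knockout was made. Hsd17b13, which encodes a lipid droplet enzyme of hepatocytes, stood at 347 ± 36.04 CPM (SD, n = 6) in WT livers and at 1.18 ± 0.181 in KO livers. The hepatocyte marker Alb was at 44936 ± 5052 and 44794 ± 4817 CPM. Of the 16 hepatocyte markers listed, Alb included, 14 had a log2 difference of KO from WT above 0 (median 0.07).

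Oxidative phosphorylation takes place in the inner mitochondrial membrane. Complexes I and II pass electrons from NADH and succinate to ubiquinone, complex III passes them to cytochrome c, and complex IV passes them to oxygen. Complexes I, III and IV pump protons, and complex V, the ATP synthase, uses the resulting gradient to make ATP. Complex II is encoded wholly in the nucleus, whereas the other complexes combine nuclear subunits with a few made inside the mitochondrion, so 2 genomes must supply one machine. Mitochondrial DNA is transcribed as long precursors from both strands, which are then cleaved into mRNAs, rRNAs and tRNAs. Hepatocytes are rich in mitochondria, which oxidise the fatty acids that reach the liver.

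Some mitochondrial genes share bases with a neighbour, so a read there cannot be given to 1 gene by position alone. The stretches below come from the GENCODE M21 transcripts on the mouse build GRCm38 (mm10), with the bases that lie in both reading frames in capitals. The 3 members with the widest intervals below are mt-Atp8, mt-Nd3 and mt-Nd4l. Shown are the overlaps of mt-Atp8 and mt-Nd4l, each beside a partner with a higher CPM. By position, mt-Nd3 shares no bases with another member. The part of shared bases in the width of the intervals was not tested. The mt-Atp8 and mt-Atp6 frames, for which the stretch lies at chrM:7907-7989 on the plus strand, share 43 bases. The mt-Nd4l and mt-Nd4 frames, at chrM:10147-10193 on the plus strand, share 7.
mt-Atp8 and mt-Atp6: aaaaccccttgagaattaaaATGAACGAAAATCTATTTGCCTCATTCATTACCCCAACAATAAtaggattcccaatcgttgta
mt-Nd4l and mt-Nd4: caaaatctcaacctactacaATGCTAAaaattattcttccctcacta
The ends of mt-Nd5 and mt-Nd6 overlap by 14 bases on opposite strands. The sources used here do not say whether counting used strand.

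Nuclear oxidative phosphorylation genes are commonly bound by NRF1, by ETS factors such as GABP, and by YY1. Promoter windows of 300 bases, 250 before and 50 after the start site, were found for 75 of the 89 nuclear members in RefSeq annotation of GRCm38.p6. The core of the NRF1 motif, GCGC and again GCGC with AT between them, was in 6 of the 75 (8%), namely Ndufa11, Uqcrc1, Cox6a1, Atp5k, Ndufaf4 and Ndufaf5. It was in 0.966% of 32817 windows of the same length and in 2.43% of the 7003 tested genes with a window. The looser form, with any bases NN in place of AT, includes that core and was in 22 members (29.3%) against 15.8% of tested genes. The ETS motif CCGGAAG was in 21 (28%) against 21.1%, and the YY1 core AAGATGG in 12 (16%) against 8.87%, both strands being searched. These are matches of letters and say nothing of binding. Cox6a1 and Atp5k are shown because they are the members nearest to Hsd17b13 on chromosome 5 and both hold the NRF1 core. Capitals mark the looser NRF1 form and the ETS motif in either orientation. The Cox6a1 window lies at chr5:115348909-115349208 and the Atp5k window at chr5:108434350-108434649, both on the minus strand.
Cox6a1: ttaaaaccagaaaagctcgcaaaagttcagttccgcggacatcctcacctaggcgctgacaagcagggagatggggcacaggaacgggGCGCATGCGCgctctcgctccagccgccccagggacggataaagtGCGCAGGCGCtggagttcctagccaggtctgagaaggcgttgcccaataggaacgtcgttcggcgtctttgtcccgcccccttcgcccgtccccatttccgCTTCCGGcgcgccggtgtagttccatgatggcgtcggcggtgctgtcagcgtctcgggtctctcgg
Atp5k: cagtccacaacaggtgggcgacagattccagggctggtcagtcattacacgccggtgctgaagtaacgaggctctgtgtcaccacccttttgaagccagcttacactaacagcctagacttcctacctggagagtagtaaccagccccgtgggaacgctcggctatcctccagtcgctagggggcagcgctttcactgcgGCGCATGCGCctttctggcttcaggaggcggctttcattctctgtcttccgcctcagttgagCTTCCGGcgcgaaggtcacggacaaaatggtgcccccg

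The libraries held 46.3 to 77.9 counts per CPM, as read from the step between low values, so 10 CPM rested on at least 463 counts and a counting error of at most 4.65%. KO mice 1 and 3 stood between WT and the other KO mice in Gm8730, a pseudogene of Rplp0. It was at 25.6 to 30.9 CPM in WT, 117 and 119 in KO mice 1 and 3, and 185 to 206 in KO mice 2, 4, 5 and 6. WT mouse 3 was the lowest WT mouse for all 13 mitochondrial members, as given below. The tissue is a mixture of cells, in which fewer cells of a type and less RNA per cell cannot be told apart.

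None of these genes that could be tested passed the test of KO against WT. The 90 members averaging 10 CPM or more were tested with limma on log2(CPM + 1) among 9186 genes, and 0 passed an adjusted p of 0.05. Over all genes tested 14 passed (0.152%). At an unadjusted p under 0.05 there were 2 members, Ndufaf1 and Ndufb3, or 2.22% of those tested against 9.8% of all genes. The groups overlapped for every one of the 102 members. They did not overlap for 0.893% of all genes tested and for 1.32% of genes averaging 1 CPM or more. With shares that small, 0 of 102 does not set the members apart. The 95% intervals of the 77 nuclear differences all lay between -0.23 and 0.30 on the log2 scale. For 12 of the 13 mitochondrial members the interval lay within 1.5-fold in either direction, and that of mt-Atp8 ran from -0.47 to 0.74.

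**Figure D1:**
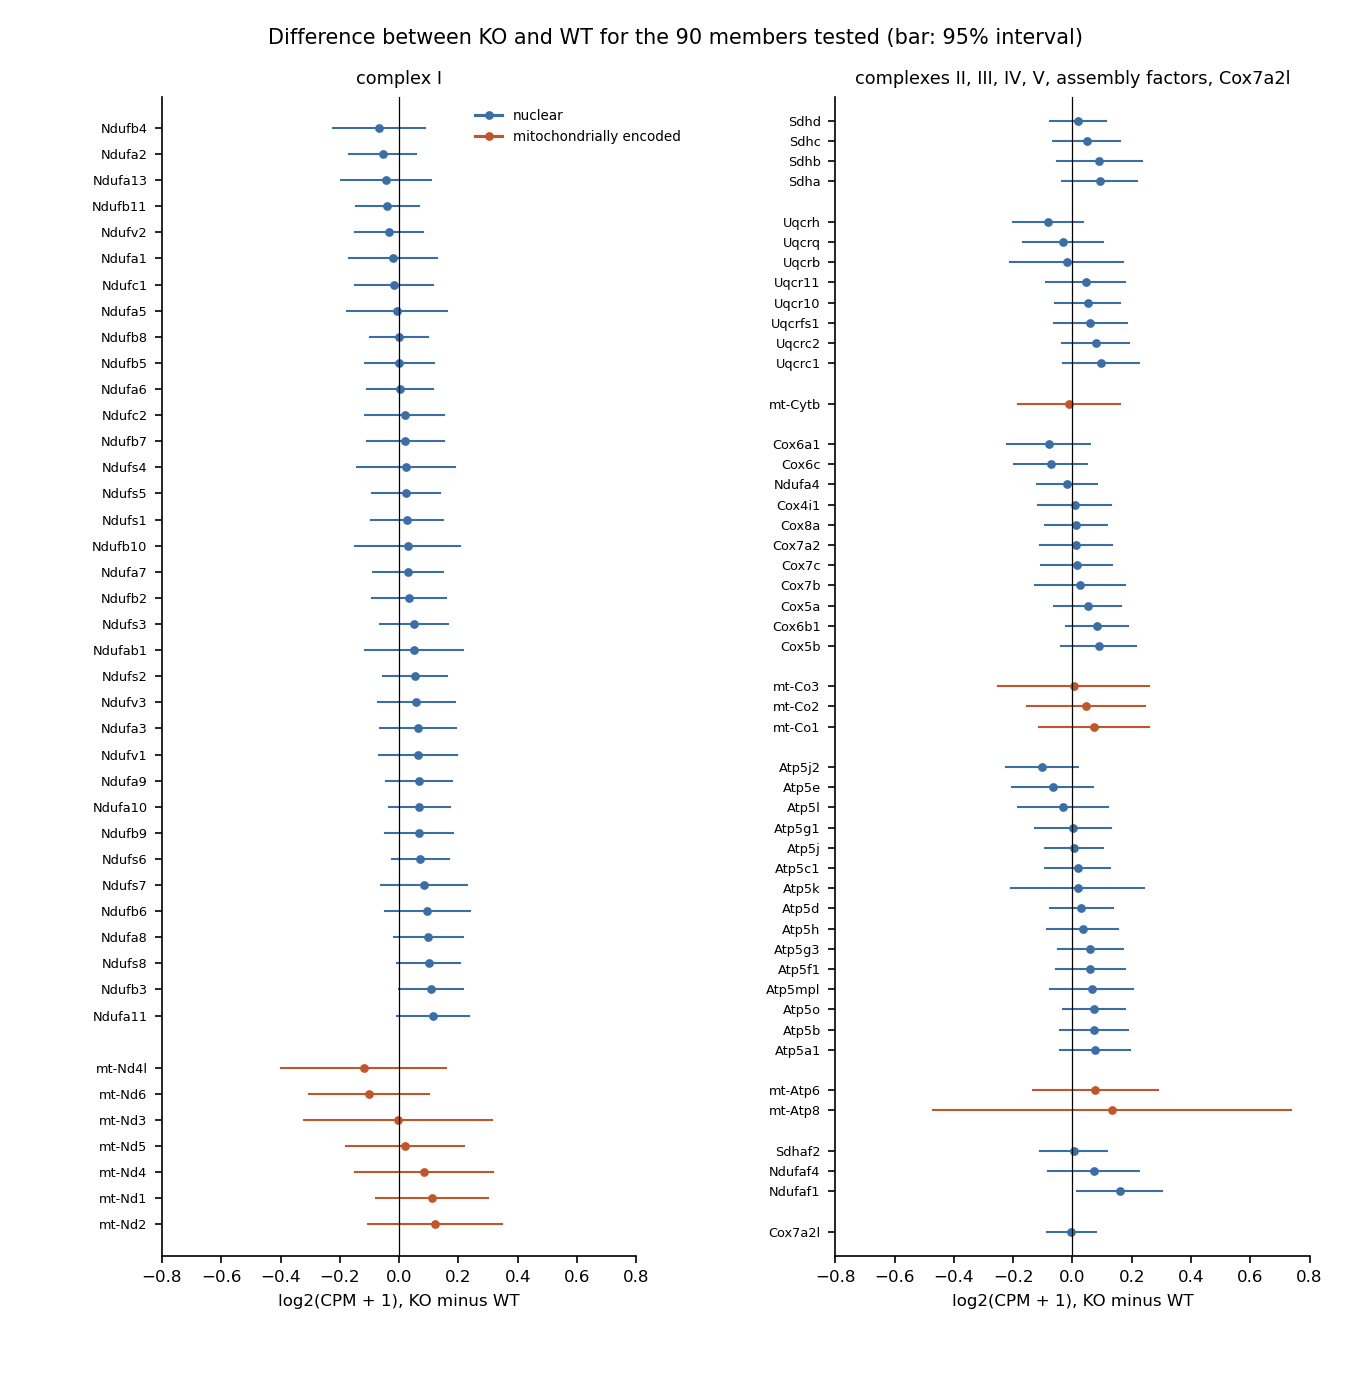
Difference of KO from WT in log2(CPM + 1) for the 90 members tested, with 95% intervals from limma, grouped by complex and coloured by genome. Nuclear points lie between -0.10 (Atp5j2) and 0.16 (Ndufaf1), and the widest interval is that of mt-Atp8.

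The small differences leaned upward in KO. Nuclear members had a log2 difference above 0 in 59 of 77 cases (76.6%) and a median of 0.03, and mitochondrial members in 9 of 13 (69.2%) with a median of 0.05. Among all genes tested 45.6% were above 0, with a median of -0.01. Abundant genes of any kind leaned the same way: of genes averaging 100 CPM or more, 62.1% were above 0 with a median of 0.03, against 12 of 14 nuclear members. Without KO mice 1 and 3 the nuclear count was 52 of 77 with a median of 0.02, beside 51.1% of all genes. Leaving out WT mouse 4 alone brought it to 45 of 77 with a median of 0.01, beside 50.9% of all genes. With library weights it was 49 of 77, beside 46.0% of all genes. Median-of-ratios scaling put 67 of 77 nuclear members above 0, beside 60.3% of all genes. The mitochondrial lean did not keep its direction: its median was -0.05 without WT mouse 3 and -0.03 with library weights. After quantile normalization the median was 0 and 6 of 13 were above 0. Members share libraries, so these counts are a description without a test.

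Complex I oxidises NADH and is the largest of the 5 complexes. Of its 35 nuclear subunits tested, 27 had a difference above 0 and the median was 0.03. Ndufb3, an accessory subunit of the membrane arm, ranged from 12.3 to 14.0 CPM in WT (median 12.6) and from 13.5 to 14.5 in KO (median 14.0), with 3 KO mice above every WT mouse. Its log2 difference was 0.11 ± 0.05 (SE, adjusted p = 0.507). Ndufa11, a membrane-arm subunit, ranged from 24.3 to 29.9 CPM in WT (median 27.7) and from 27.4 to 30.9 in KO (median 30.3). Ndufs8, an iron-sulfur core subunit, ranged from 29.98 to 34.97 CPM in WT (median 33.9) and from 33.6 to 37.7 in KO (median 35.3). For Ndufs8, 5 of 6 KO mice stood above every WT mouse, yet the difference of 0.10 ± 0.05 did not pass (adjusted p = 0.557). The remaining subunit, Ndufa12, the lowest of all subunits per kilobase, had 7.77 ± 0.757 CPM in WT and 8.01 ± 0.680 in KO and fell below the minimum for testing.

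Assembly factors build the complexes and are not part of them. Ndufaf1, which works on the membrane arm of complex I, had the largest nuclear difference. It ranged from 11.9 to 14.5 CPM in WT (median 13.7) and from 13.9 to 17.5 in KO (median 14.8), and 5 of the 6 KO mice exceeded all WT mice. The difference was 0.16 ± 0.07 (SE), with an adjusted p of 0.43. Ndufaf4, another complex I factor, was at 17.8 ± 1.64 and 18.8 ± 1.56 CPM, and Sdhaf2, which attaches FAD to Sdha, at 21.5 ± 0.883 and 21.6 ± 1.33. The other 9 assembly factors had means from 2.47 to 9.55 CPM and were not tested in the main comparison. With a minimum mean of 1 CPM they were, and none passed. The lowest adjusted p among them was 0.738, for Ndufaf2 (3.47 ± 0.262 in WT, 3.18 ± 0.403 in KO) and Ndufaf8 (7.71 ± 0.778 and 7.15 ± 0.581).

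Complex II, succinate dehydrogenase, links the citric acid cycle to the chain. All 4 of its subunits had a difference above 0, with a median of 0.07, and none passed. The flavoprotein Sdha ranged from 289 to 333 CPM in WT (median 297) and from 302 to 353 in KO (median 325), a difference of 0.09 ± 0.06 (adjusted p = 0.682). The iron-sulfur subunit Sdhb ranged from 75.5 to 88.3 CPM in WT (median 81.9) and from 74.4 to 95.7 in KO (median 89.9). Here 4 KO mice lay above all WT mice and 1 lay below them all. Together the 4 subunits made up 589 ± 27.9 CPM of a WT and 619 ± 32.4 of a KO library.

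In complex III, the cytochrome bc1 complex, 5 of 8 subunits were above 0 (median 0.05). The core proteins Uqcrc1 and Uqcrc2 were at 162 ± 10.3 and 123 ± 6.59 CPM in WT and 173 ± 11.8 and 130 ± 7.17 in KO. The hinge protein Uqcrh pointed the other way, at 67.0 ± 3.47 and 63.2 ± 4.12 CPM, with 2 KO mice below every WT mouse (log2 difference -0.08 ± 0.05, adjusted p = 0.697). Cyc1, the cytochrome c1 subunit, falls outside the naming rule and was at 107 ± 7.504 and 109 ± 6.98 CPM. Cycs, cytochrome c itself, was at 38.2 ± 4.92 and 42.6 ± 2.51 CPM (adjusted p = 0.557).

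Complex IV, cytochrome c oxidase, had the smallest median over nuclear subunits among the complexes, 0.01, with 8 of 11 above 0. Ndufa4, named for complex I but now counted with complex IV, was at 99.2 ± 4.82 and 97.9 ± 4.14 CPM. Cox6b1 ranged from 84.1 to 96.8 CPM in WT (median 90.9) and from 89.4 to 100.1 in KO (median 95.7), and Cox5b was at 49.1 ± 1.87 and 52.4 ± 4.48. Cox6c pointed down, at 80.4 ± 4.88 and 76.4 ± 5.30 CPM (adjusted p = 0.76). Its gene region holds part of Vps13b on the opposite strand, and without a stated strand setting their reads may mix. Several complex IV subunits come in tissue forms. Among the forms measured, the liver types were the abundant ones. Cox6a1 averaged 121 CPM over 12 mice, Cox7a2 56.8 and Cox8a 87.9, whereas the muscle form Cox7a1 and the testis form Cox6b2 stayed under 1 CPM. Of 10 skeletal muscle and heart markers 2 were in the table, and they summed to 0.296 to 0.820 CPM. Cox7a2l, which joins complexes III and IV into supercomplexes, was at 77.6 ± 1.87 and 77.4 ± 1.55 CPM, with one of the narrowest intervals (-0.09 to 0.08). Ndufa4l2, a relative of Ndufa4 known from hypoxia, was at 1.09 ± 0.202 and 1.29 ± 0.248 CPM.

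Among the 15 nuclear subunits of ATP synthase, 12 had a difference above 0 (median 0.03). The catalytic beta subunit Atp5b was the most abundant nuclear member, from 763 to 844 CPM in WT (median 798) and from 775 to 907 in KO (median 857). In 4 of 6 KO mice it exceeded every WT mouse, and its difference of 0.07 ± 0.05 did not pass (adjusted p = 0.734). Atp5o, the stalk subunit that confers oligomycin sensitivity, was at 57.3 ± 3.61 and 60.3 ± 0.995 CPM. Atp5j2, subunit f of the membrane part, had the most negative nuclear difference. It ranged from 58.5 to 70.7 CPM in WT (median 68.05) and from 57.1 to 64.3 in KO (median 62.4), a difference of -0.10 ± 0.06 (adjusted p = 0.599). Atpif1, which inhibits the enzyme when it runs backwards and is no member by name, was at 17.6 ± 2.16 and 15.3 ± 1.23 CPM (adjusted p = 0.457).

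Cox6a1, Atp5k and Atp5j2 lie on chromosome 5, as does Hsd17b13, at 11.4, 4.47 and 41.2 Mb from it. Cox6a1, the subunit VIa of complex IV, ranged from 117 to 132 CPM in WT (median 124). In KO it was at 105, 112, 113, 114, 120 and 141 CPM, so that 4 of 6 KO mice lay below every WT mouse and KO mouse 3 above them all. The difference was -0.08 ± 0.07 (adjusted p = 0.772), and -0.16 without KO mice 1 and 3 (adjusted p = 0.247), the lowest adjusted p of any member under any setting tried. Atp5k, subunit e, nearer to Hsd17b13, was at 19.0 ± 2.19 and 19.4 ± 3.195 CPM, a difference of 0.02 ± 0.10.

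Levels differed far more between genomes than between genotypes. Per kilobase of transcript, the mean of all mice ran from 658 CPM (mt-Nd3) to 7428 (mt-Co1) for mitochondrial mRNAs, without the nuclear copies described below. The nuclear subunits that were most abundant per kilobase in each complex were Ndufb9 (100), Sdha (109), Uqcrq (448), Cox4i1 (314) and Atp5b (431). Assembly factors were at 1.30 to 12.4 CPM per kilobase. The median mitochondrial member exceeded the median nuclear subunit 35.6 ± 5.93 times in WT and 36.1 ± 1.65 times in KO (SD, n = 6), on the per-kilobase scale. Within complexes that ratio in WT was 36.6 ± 6.99 for complex I, 27.6 ± 4.16 for III, 18.3 ± 3.50 for IV and 22.6 ± 5.09 for V. In KO it was 35.2 ± 1.90, 26.4 ± 2.30, 17.8 ± 1.57 and 22.8 ± 2.10, and the ranges of the groups overlapped in each. In an alternative chosen after seeing the data, the measured nuclear copies were added to each mitochondrial gene. Copies of nuclear members were not added, so this alternative could raise a ratio but not lower it. The ratio for complex IV was then 32.4 ± 5.54 in WT and 32.4 ± 2.99 in KO, and that for complex V 38.0 ± 7.34 and 38.4 ± 3.02. Those of complexes I and III stayed at 36.7 ± 7.001 and 27.6 ± 4.16 in WT, and the ratio over all complexes was 39.7 ± 6.83 in WT and 41.8 ± 2.64 in KO. The order of the complexes by this ratio therefore depended on how copies are treated.

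**Figure D2:**
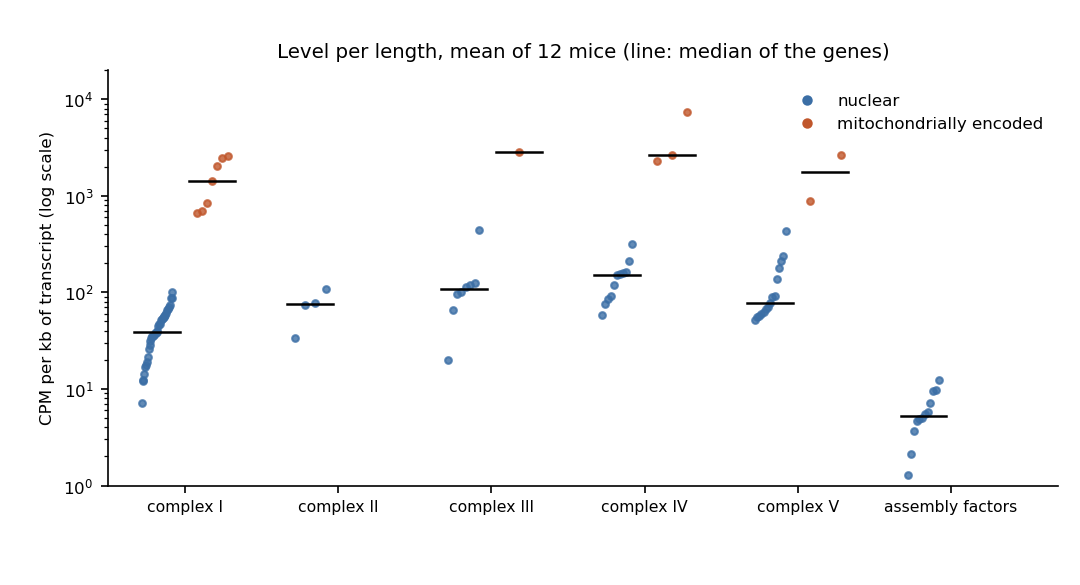
Level per kilobase of transcript (log axis, mean of 12 mice) of each subunit and assembly factor by complex, with a line at the median of the genes. The 3 related proteins are left out. Every mitochondrial member, from 658 upward, lies above every nuclear subunit, up to 448, without nuclear copies added.

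Summed CPM gave the same picture. Nuclear members took 0.629% ± 0.023 of each WT library and 0.647% ± 0.024 of each KO library, and mitochondrial mRNAs 3.13% ± 0.405 and 3.24% ± 0.147. Nuclear sums ranged from 5922 to 6510 CPM in WT and from 6130 to 6809 in KO, and mitochondrial sums from 24364 to 35192 and from 30370 to 34809. The ratio of mitochondrial to nuclear sums was 4.99 ± 0.768 in WT and 5.01 ± 0.252 in KO. The lowest value of that ratio, 3.74, and the highest, 5.90, both belonged to WT mice.

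**Figure D3:**
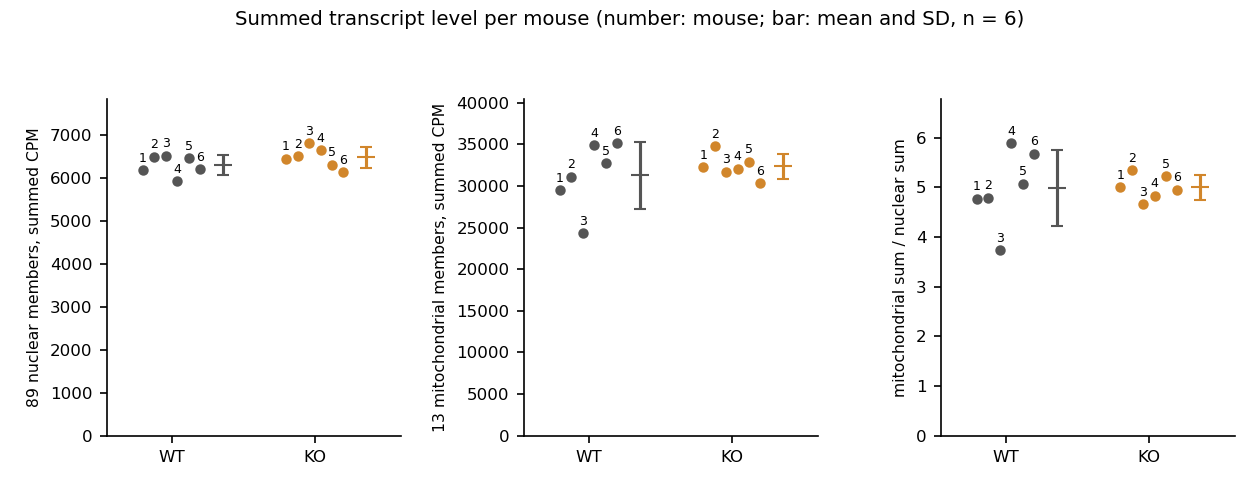
Summed CPM of the 89 nuclear and the 13 mitochondrial members and their ratio, 1 numbered point per mouse, with mean and SD (n = 6). WT and KO overlap in all panels, and WT mouse 3 is lowest in the mitochondrial sum, at 24364 CPM.

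WT mouse 3 set the lower end of the mitochondrial range. It was the lowest WT mouse for all 13 mitochondrial members and the lowest of all 12 mice for 11 of them, the exceptions being mt-Nd4l and mt-Nd6. Its mt-Atp8 was at 60.1 CPM, against 138 to 256 in the other WT mice and 154 to 223 in KO. The large ribosomal RNA mt-Rnr2 was at 2359 CPM in this mouse and at 7342 CPM or more in the other 11. Its mt-Rnr1, the small ribosomal RNA, was at 187 CPM, close to KO mouse 4 at 189.6. The labels name rRNA depletion, so rRNA values are what the depletion left. The nuclear sum of this mouse, 6510 CPM, was the highest in WT. Its library had 52.6 counts per CPM, within the range of the others. Without it the mitochondrial mean in WT was 32698 ± 2453 CPM, and the log2 difference of KO from WT went from 0.06 to -0.01.

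**Figure D4:**
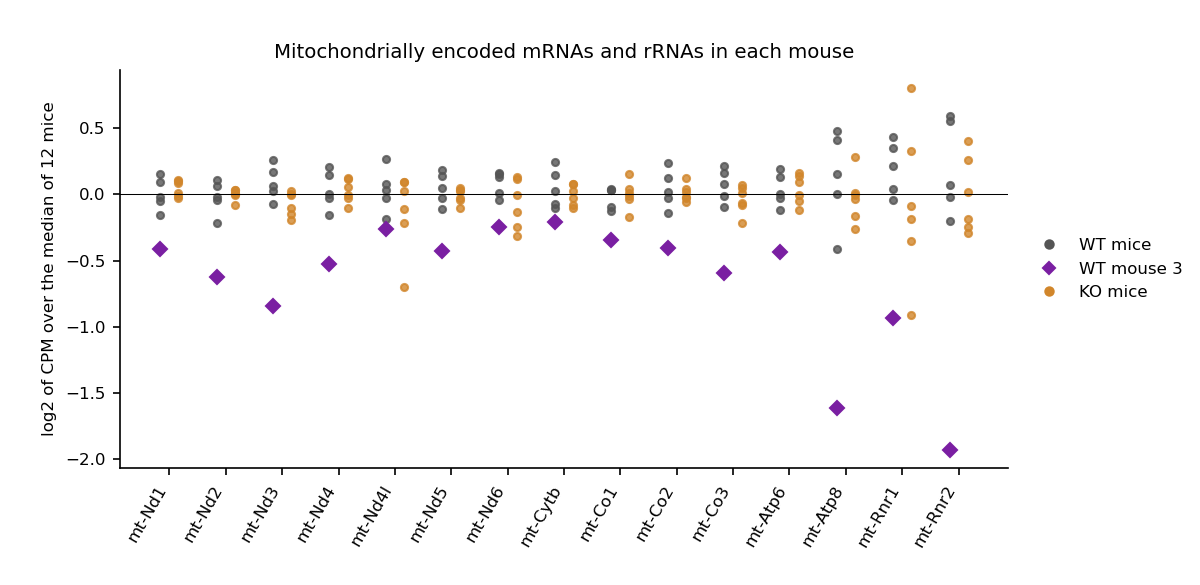
Level of each mitochondrial member and of the rRNAs mt-Rnr1 and mt-Rnr2 in each mouse, as log2 of CPM over the median of 12 mice. WT mouse 3 (diamonds) is the lowest WT mouse for all 13 members and lies farthest down for mt-Rnr2, at 2359 CPM.

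The core subunits of complex I encoded by mitochondrial DNA had differences of either sign, and none passed. mt-Nd1 averaged 2411 ± 324 CPM in WT and 2587 ± 109 in KO mice, mt-Nd2 at 2016 ± 340 and 2163 ± 60.8, and mt-Nd4 at 3334 ± 563 and 3493 ± 212. mt-Nd3 was at 232 ± 53.2 and 226 ± 14.0 CPM, and mt-Nd5 at 2602 ± 374 and 2616 ± 102. mt-Nd4l was at 217 ± 28.7 and 201 ± 37.4. mt-Nd6, the only mitochondrial member encoded on the other strand, ranged from 370 to 492 CPM in WT (median 461) and from 353 to 482 in KO (median 419). Its difference was -0.10 ± 0.09 (adjusted p = 0.803), with 2 KO mice below every WT mouse.

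The cytochrome b of complex III, mt-Cytb, averaged 3288 ± 384 CPM in WT mice and 3249 ± 174 in KO mice. mt-Co1, the catalytic subunit of cytochrome c oxidase and the most abundant member, ranged from 9273 to 12121 CPM in WT and from 10446 to 13070.0 in KO. Its difference of 0.07 ± 0.09 did not pass (adjusted p = 0.863). mt-Co2 and mt-Co3 were at 1535 ± 229 and 2080 ± 378 CPM in WT and 1570 ± 72.0 and 2057 ± 146 in KO. The ATP synthase subunit a, mt-Atp6, was at 1769 ± 256 and 1854 ± 144 CPM, and mt-Atp8 at 181 ± 73.1 and 182 ± 23.9. Mitochondrial mRNAs varied more within WT than within KO: the median SD on the log2 scale was 0.22 in WT, 0.13 without WT mouse 3, and 0.09 in KO. In nuclear members it was 0.09 in WT and 0.09 in KO.

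Nuclear copies of mitochondrial genes held nearly as many counts as some of the genes themselves. Nuclear DNA holds insertions of mitochondrial sequence, and reads from identical stretches cannot be assigned to one genome. Of the 13 mitochondrial genes, 9 had a copy in the table that matched at 95% identity or more over at least 200 bases, 11 copies in all. They were looked for, and are named here, after member values were seen. A block of 7 lies at chr1:24611535-24616197. Its Gm10925 is 100% identical to mt-Atp6 over 678 bases and averaged 1610 ± 238 CPM in WT mice and 1696 ± 153 in KO mice, close to mt-Atp6 itself. Gm28437, 100% identical to mt-Co3 over 783 bases, was at 1609 ± 231 and 1692 ± 159 CPM, and Gm28661, 100% identical to mt-Co2 over 681 bases, at 1253 ± 162 and 1346 ± 52.4.

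Of the joint level with mt-Atp6, its copy took 47.6% ± 1.13 in WT and 47.8% ± 2.0003 in KO. Copies took 46.8% ± 0.862 and 47.8% ± 1.38 with mt-Co2, and 43.8% ± 1.74 and 45.1% ± 2.20 with mt-Co3. With mt-Nd3 its copy took 36.3% ± 1.67 in WT and 35.95% ± 2.24 in KO, of joint levels of 364 ± 80.9 and 353 ± 23.8 CPM. With mt-Nd4l the copy took 30.7% ± 1.82 and 30.6% ± 1.30, of 313 ± 42.1 and 290 ± 52.8 CPM. For mt-Co1 the share was 1.45% to 2.65% per mouse. How much of the copies' level came from mitochondrial RNA was not tested, so the listed levels of mt-Co2, mt-Co3, mt-Atp6, mt-Nd3 and mt-Nd4l are uncertain. Adding all 11 copies put the mitochondrial sum at 36649 ± 4774 CPM in WT and 37904 ± 1589 in KO. The ratio to the nuclear sum, to which no copies were added, was then 5.85 ± 0.902 and 5.86 ± 0.293. The 11 copies stood at 5340 ± 743 and 5530 ± 278 CPM, and 7 of them were lowest among WT in mouse 3.

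**Figure D5:**
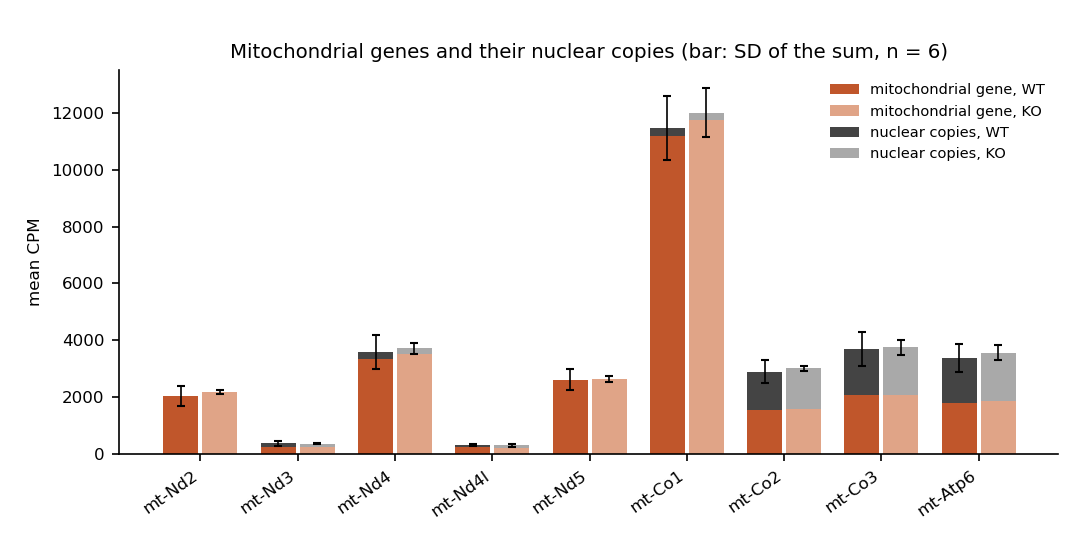
Mean CPM of the 9 mitochondrial genes with a measured nuclear copy, stacked with those copies, in WT and KO (bar: SD of the sum, n = 6). The copies hold nearly as much as the gene itself for mt-Co2, mt-Co3 and mt-Atp6 and little for mt-Co1.

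Measured copies also stood beside 19 nuclear members. All were annotated as pseudogenes except Gm11273, the copy of Cox5b, which was annotated as protein-coding. Ndufb4, a membrane-arm subunit of complex I, was at 12.4 CPM in WT against 22.4 for its processed pseudogene Ndufb4c. Copies reached 97.4% of the level of Uqcrb, 93.2% of Ndufa12, 87.2% of Atp5h and 74.5% of Atp5g1. These levels are uncertain, as the authors' counting may have split reads between gene and copy. With copies added, Ndufb4 came to 34.8 ± 3.51 CPM (WT) and 33.9 ± 1.91 (KO), and Uqcrb to 21.02 ± 1.73 and 22.2 ± 1.73.

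Of the genes that make, regulate or accompany the complexes, none averaging 10 CPM or more passed, and 1 below that level, Cox18, did when the minimum was lowered. In the list of mitochondrial DNA expression machinery, 0 of 18 tested passed, 0 were at an unadjusted p under 0.05 and 11 were above 0 (median 0.02). Tfam, which packages mitochondrial DNA and starts its transcription, was at 27.2 ± 2.16 and 28.2 ± 1.87 CPM, and the RNA polymerase Polrmt at 24.2 ± 2.81 and 23.3 ± 1.93. Among 17 regulators of mitochondrial biogenesis 0 passed, 1 was at an unadjusted p under 0.05 and 8 were above 0 (median -0.02). Ppara, the fatty acid sensor, was at 125 ± 14.9 and 142 ± 14.2 CPM (adjusted p = 0.501), Esrra at 26.3 ± 3.57 and 29.3 ± 2.01, and the coactivator Ppargc1a at 13.6 ± 1.35 and 16.2 ± 4.78. Among 38 other chain subunits, carriers and assembly factors 0 passed, 1 was at such a p and 29 were above 0 (median 0.03). Sco2, which delivers copper to mt-Co2, was at 24.1 ± 3.71 and 19.0 ± 2.62 CPM (log2 difference -0.33 ± 0.11, adjusted p = 0.278).

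Cox18 helps to insert mt-Co2 into the inner membrane and is 1 of 11 genes of that list, 49 in the table, that averaged less than 10 CPM. It was at 5.69, 5.75, 6.22, 6.22, 6.57 and 6.77 CPM in WT (median 6.22) and at 9.63, 9.76, 10.9, 11.6, 12.1 and 12.2 in KO (median 11.2). All 6 KO mice stood above every WT mouse, as KO or WT mice did in either direction for 1.32% of the 15648 genes averaging 1 CPM or more. In the limma fit with that minimum, Cox18 rose by 0.74 ± 0.07 on the log2 scale (SE, adjusted p = 0.000221), as 1 of 31 calls (0.198%). With no minimum the adjusted p was 0.000457. The gene lies at chr5:90214724-90224001 on GRCm38, 13.7 Mb from Hsd17b13. With a minimum mean of 1 CPM, 0 of 29 genes of the expression machinery, 0 of 18 regulators and 0 of 26 content genes passed.

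Among 26 genes of general mitochondrial content 0 passed, 2 were at an unadjusted p under 0.05 and 19 were above 0 (median 0.02). The ADP/ATP carrier Slc25a5 ranged from 282 to 307 CPM in WT and from 305 to 332 in KO (0.17 ± 0.04, adjusted p = 0.158). Its paralog Slc25a4 was at 14.1 ± 3.06 and 10.8 ± 1.13. Nnt, which couples the proton gradient to NADPH, is listed under a pair of identifiers, at 43.3 ± 3.73 and 43.1 ± 2.71 CPM and at 25.2 ± 3.08 and 24.5 ± 3.50. No cell type marker averaging 10 CPM or more passed. With a minimum mean of 1 CPM, 1 did, the cholangiocyte keratin Krt7, which averaged 3.61 ± 1.30 CPM in WT mice and 1.23 ± 0.538 in KO mice (adjusted p = 0.0495 for a log2 difference of -1.04 ± 0.19). At an unadjusted p under 0.05 were 4 of 4 cholangiocyte, 6 of 8 stellate cell, 7 of 9 macrophage, 2 of 8 endothelial and 1 of 16 hepatocyte markers tested. Of all genes tested, 9.8% were at such a p. The macrophage markers had differences of either sign, 4 above 0 and 5 below, from -0.59 to 0.59. So did the stellate cell markers, 2 above 0 and 6 below, from -0.55 to 0.44. The summed CPM of cholangiocyte markers was 766 ± 227 in WT and 463 ± 91.7 in KO (577 to 1144 and 382 to 601). That sum covers 10 markers, of which 4 averaged 10 CPM or more, and includes Spp1, a gene near Hsd17b13 on chromosome 5. The part of Spp1 in the sum was not tested. Stellate cell markers summed to 1464 ± 250 and 1208 ± 124 CPM, and macrophage markers to 1913 ± 271 and 1553 ± 199. Endothelial markers summed to 464 ± 41.5 and 530 ± 82.5 CPM and hepatocyte markers to 98801 ± 8576 and 101352 ± 5223. Of the 16 hepatocyte markers 14 were above 0, with a median of 0.07. The part of these differences in the upward lean of the oxidative phosphorylation genes was not tested.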

How the data were processed

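The members and gene lists were chosen with earlier results of these data known. Per the labels' protocols, liver RNA was depleted of globin and ribosomal RNA and made into directional libraries, although a label names polyA RNA. The submitters' processing notes name mm10, Partek 10.0, STAR 2.7.3a and DESeq2 1.14.1 without roles, and no source used here gives the counting or strand settings. CPM values are what the authors deposited: each of 12 columns sums to 1000000. Of low values, 70.8% to 74.0% lay within 0.02 of a whole multiple of 1 step (4% if evenly spread). The rest did not, so counts could not be recovered for a count test. All value columns matched a sample.

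Symbols, positions and lengths came from GENCODE M21, which matched 20055 identifiers and left 88. The 9186 genes averaging 10 CPM or more were compared with limma 3.58.1 in R 4.3.3 on log2(CPM + 1), with empirical Bayes and a mean trend, two-sided, and Benjamini-Hochberg adjustment over all genes (threshold 0.05). The log2 differences understate low genes. Copies were sought with BLASTN 2.17.0. Per-kilobase levels divide by the shortest principal transcript. Sums, ratios and lists received no test. The fit was tested on simulated data.

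Named were, per complex and for assembly factors, the 3 smallest p-values and the most abundant nuclear subunit per length, all mitochondrial members, tissue isoforms, members near Hsd17b13 and members under 10 CPM. Up to 2 genes per related list and the single genes Hsd17b13, Nnt, Atpif1, Cyc1, Cycs, Tfam, Polrmt, Ppargc1a, mt-Rnr1 and mt-Rnr2 were also named. Alb, Gm8730, Cox18, Krt7 and the members with abundant pseudogenes were named after their values were seen. Alternatives were pseudocounts of 0.5 and 10, minimum means of 1 and 100 CPM or none, quantile normalization, median-of-ratios scaling, a common total without mitochondrially encoded genes, no trend, library weights, a replicate block, and leaving out mice. Positions are 1-based.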

Additional observations from a re-analysis of the deposited data

Results flagged for a closer look

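In 126 sets of 6 mice, each a named gene or a sum in 1 genotype, the highest and lowest mouse were compared with the rest. In 3 of them 1 mouse lay apart by a gap that Dixon's test passes at 95% for 6 samples. Chance flags about 1 in 20 sets. Atp5o, the oligomycin sensitivity subunit, was lowest in WT mouse 4 at 50.25 CPM, with the next WT mouse at 57.81. mt-Nd2 was lowest in KO mouse 4 at 2049 CPM, with the next KO mouse at 2161. Ndufa4 was highest in WT mouse 2 at 108.2 CPM, with the next at 99.61. WT mouse 3 passed in none of the sets.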

How the results depend on the processing

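No member was called under any of the 24 alternative settings. The lowest adjusted p of a member was 0.247 (Cox6a1 without KO mice 1 and 3), and at most 5 members were at an unadjusted p under 0.05. The count of calls over all 9186 genes, 14, moved with the setting. It was 31 with a minimum mean of 1 CPM, 29 with no minimum, 4 with a minimum of 100, 35 with library weights and 89 without KO mice 1 and 3. The number of genes tested changed with the minimum: it was 15648 with a minimum of 1 CPM, larger with none and smaller with 100. The cause of the moves was not tested. Leaving out each mouse in turn gave 9 (without WT mouse 3) to 25 (without KO mouse 3) calls, 0 of them members. It gave nuclear medians of 0.01 to 0.05, mitochondrial medians of -0.05 to 0.09, and log2 differences of the mitochondrial to nuclear ratio of -0.06 to 0.07. The mitochondrial median lay below 0 without WT mouse 3 (-0.05) and with library weights (-0.03). Of 1187 values of named genes recomputed, 1 moved by more than the spread between mice, Cox7a2l under median-of-ratios scaling (0.03). Among them 0 newly passed the threshold. Of the 1151 recomputed values without a call, 76 changed sign.

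Mice of both groups carry numbers 1 to 6. Same-numbered mice deviated from their group means with correlations of 0.36, 0.16, -0.07, 0.15, -0.51 and 0.39. Of the 6 WT mice, 2 correlated best with their own number. Correlations of either sign over so few mice cannot show whether the numbers pair them. With a replicate block 11 genes were called, 0 of them members, and the medians stayed at 0.03 and 0.05.

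At 10 CPM the counting error, which covers counting only, is at most 4.65%, and it grows to 14.7% at 1 CPM, where Ndufa4l2 lies.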
